A study of Mus musculus with 11 samples.

Results

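Interferon-inducible GTPases of the GBP and IRG families were followed in whole mouse colon. The 10 genes were taken by symbol, 5 guanylate-binding proteins (Gbp2, Gbp3, Gbp5, Gbp6 and Gbp7) and 5 immunity-related GTPases (Igtp, Irgm1, Irgm2, Iigp1 and Ifi47), and all 10 were found among the 22836 genes of the table. The libraries came from 3 groups. Control mice were Tfam fl/fl animals, which carry the floxed gene for the mitochondrial transcription factor TFAM but no Cre (n = 3). Tfam fl/fl Cd4 Cre mice, called knockout below, lack Tfam in their T cells (n = 3). Cd4 Cre is switched on in developing T cells, so the deletion covers CD4 and CD8 T cells and leaves the rest of the colon with an intact gene. The third group comprised Tfam fl/fl Cd4 Cre mice given CD4 T cell therapy, that is an injection of CD4 T cells from Ly5.1 donors aged 7 weeks (n = 5), called transferred below. Recipients keep their own Tfam-deficient T cells beside the donor cells, so colon RNA from this group holds both. The labels gave no age, and legends of the study put mice of the transfer experiment at about 10 months. The comparisons ask how far the GTPases differ in the colon when T cells lose Tfam, and what their level is after competent CD4 T cells are supplied. The study gave the cells before its phase of acute weight loss, and the series holds no sample from before transfer. Whether transferred colons ever had the knockout level is therefore not known. Words such as rose, fell and remained describe differences between groups below, not changes over time.

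As background, GBPs and IRGs are among the genes that interferon-gamma induces most strongly in mouse cells. Interferon-gamma binds its receptor, signals through the Janus kinases, and switches the GTPase genes on, with the help of the factor IRF1. The proteins gather on the membranes of vacuoles that hold bacteria or parasites and on bacteria in the cytosol, break these membranes, and expose microbial products to inflammasomes. IRGs fall into effectors, such as Iigp1 and Ifi47, which load onto the vacuole, and regulators of the Irgm type (Irgm1, Irgm2 and Igtp, also called Irgm3), which sit on host membranes and keep the effectors inactive there. In the gut both families are known from macrophages and from the epithelium.

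Most members carried interferon-response letters just before their start site, and these stretches are shown because all 10 genes moved together in the data below. Windows of 250 bases before the RefSeq start were available for 8 of the 10 genes, with 9 windows in all since Gbp3 has 2. The interferon-stimulated response element was searched as a pair of GAAA separated by any 2 bases, and the gamma-activated site as TTCNNNGAA, on both strands, with overlapping matches allowed. The first was present in windows of 7 of the 8 genes, against 3.46% of 27025 genes with windows of the same length. The second was present in 4 of the 8 genes (Gbp5, Gbp7, Igtp and Irgm2), against 8.13% of genes. Both stood together in these 4 genes, against 0.459% of genes. For the gene lists described further below, the first motif was present in 4 of 7 other GTPases with a window. It was present in 2 of 16 other interferon-gamma targets and in 8 of 16 type I interferon targets with a window. A link between the motifs and the levels was not tested. Counted by window, 7 of 9 held the first motif and 4 of 9 the second, against 2.98% and 7.02% of 32851 windows. Each line gives 30 bases before the start, 5′ to 3′ on the strand of the gene, with the matched letters in capitals. Sequences are from RefSeq (GRCm38.p6), and positions are those of their exact match in GRCm39, the build of the counts and of all gene coordinates given here.

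Gbp5 (chr3:142202520-142202549, plus strand): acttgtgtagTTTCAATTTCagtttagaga
Gbp7 (chr3:142236034-142236063, plus strand): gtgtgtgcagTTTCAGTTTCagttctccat
Gbp3 (chr3:142265753-142265782, plus strand): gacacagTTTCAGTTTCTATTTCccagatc
Gbp2 (chr3:142326355-142326384, plus strand): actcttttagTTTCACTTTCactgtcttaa
Irgm1 (chr11:48762255-48762284, minus strand): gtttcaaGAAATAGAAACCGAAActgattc
Igtp (chr11:58090332-58090361, plus strand): gccatTTCTAGGAActGAAACTGAAAgctg
Irgm2 (chr11:58105723-58105752, plus strand): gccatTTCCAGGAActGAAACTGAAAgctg

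In Gbp2, Gbp3, Gbp5 and Gbp7, neighbours on chromosome 3, the response element read on the opposite strand, as TTTC repeats. Igtp and Irgm2, neighbours on chromosome 11, held the same arrangement of a gamma-activated site followed by a response element, with the same spacing, at 45 to 25 bases before the start in Igtp and 75 to 55 in Irgm2. Windows of Gbp3 and Irgm1 each held 2 overlapping response elements. The window of Ifi47 held neither motif, and no window was used for Gbp6 and Iigp1. The gamma-activated sites of Gbp5 and Gbp7 lay outside the stretches shown, 2 in each gene. The RefSeq start used here can lie inside the gene span given below, as it does for Gbp5. A match describes letters and does not show binding.

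The libraries were close in depth, from 18214741 to 19178986 reads in genes. Levels are given as normalised counts, the reads of a gene divided by a size factor of its library. Colon identity genes were abundant in all 11 libraries, and the 10 colon markers listed summed to 636653 to 698565 normalised counts in control, 393516 to 534603 in knockout and 559819 to 772631 in transferred colons. In knockout colons 3 of the 10 were called lower, beside 22.9% of all genes, and 1 was called higher (median log2 fold change 0.05). The number called higher was 0 or 1 when single libraries were left out. Those called lower were the absorptive genes Slc26a3 (-3.78, adjusted p = 0.00141), Car1 (-2.34, adjusted p = 0.00160) and Aqp8 (-4.77, adjusted p = 0.00588). Tfam itself was 1026 ± 53.5 (SD, n = 3) in control, 1066 ± 32.6 (SD, n = 3) in knockout and 1021 ± 92.1 (SD, n = 5) in transferred colons (log2 fold change of knockout over control 0.06 ± 0.10 SE, limma adjusted p = 0.678). Whole colon therefore gives no check of a deletion that is limited to T cells. Cd4 was higher in knockout colons than in controls (log2 fold change 2.27 ± 0.49, adjusted p = 0.00295). All tests below used limma on log2(normalised counts + 1) over 16781 genes with a mean of at least 10, and a gene was called when its Benjamini-Hochberg adjusted p was under 0.05. The labels do not state that samples of a group are separate animals, so p-values measure only the spread between these samples, which may be technical. Genes were called higher or lower in the knockout group in similar numbers, and the median log2 fold change of all genes was within 0.02 of 0 in each comparison.

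All 5 GBP genes were higher in knockout colons than in control colons, and lower in transferred than in knockout colons. Gbp2, a lipid-anchored GBP that coats pathogen vacuoles, was the most abundant of them. It lies at chr3:142326349-142343779 on the plus strand. Gbp2 measured 296, 396 and 269 normalised counts in the control libraries, 3054, 5805 and 6938 in the knockout libraries and 658, 435, 566, 868 and 407 in the transferred libraries. The lowest knockout library was above every library of the other groups, and the lowest transferred library was just above the highest control. The log2 fold change of Gbp2 was 3.97 ± 0.32 for knockout over control (adjusted p = 1.08e-05) and -3.14 ± 0.29 for transferred over knockout (adjusted p = 9.38e-05).

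Gbp7, which has been tied to the assembly of the phagocyte oxidase in macrophages (chr3:142236044-142255910, plus strand), had the smallest adjusted p of the GBPs. Its normalised counts were 69.7, 95.4 and 82.7 in control, 526, 777 and 918 in knockout and 182, 119.7, 138, 217 and 152 in transferred colons. The 3 groups did not overlap, and the transferred libraries lay between the others. Gbp7 differed from control by 3.12 ± 0.25 on the log2 scale (adjusted p = 8.97e-06) and fell by 2.18 ± 0.22 after transfer (adjusted p = 0.000128). Gbp5, known for its part in the NLRP3 inflammasome (chr3:142199739-142228105, plus strand), ranged from 53.7 to 72.8 in control, from 413 to 784 in knockout and from 66.4 to 176 in transferred colons. Gbp3 (chr3:142265731-142278979, plus strand), another gene of this cluster, ranged from 84.8 to 123, from 585 to 854 and from 116 to 270.2. For Gbp5 and Gbp3 the transferred libraries overlapped the controls. Their log2 fold changes over control were 3.27 ± 0.37 and 2.74 ± 0.32 (adjusted p = 6.33e-05 and 8.17e-05).

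Gbp6 is the member outside the chromosome 3 cluster (chr5:105418568-105443751, minus strand) and had the lowest level. The normalised counts were 37.7, 28.8 and 24.3 in control, 288, 316 and 447 in knockout and 119.6, 46.3, 77.6, 118 and 35.0 in transferred colons. Transferred libraries 1 and 4 were at least 3 times the highest control value, whereas transferred library 5 was inside the control range. Gbp6 rose by 3.49 ± 0.43 over control on the log2 scale (adjusted p = 0.000106), and it was lower after transfer by 2.26 ± 0.38 (adjusted p = 0.00157). In the annotation 25.4% of the exonic bases of Gbp6 are shared with Gm43302 on the same strand, and the chromosome 5 cluster holds near-identical copies (Gbp10, Gbp11), so reads assigned to this gene are uncertain.

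Among the IRG genes the effector Iigp1, also called Irga6, showed the largest difference of all 10 members in each of the 3 comparisons. It lies at chr18:60506680-60525706 on the plus strand. The control libraries held 50.9, 63.6 and 99.2 normalised counts of Iigp1, knockout libraries 2755, 4555 and 5564 and transferred libraries 384, 160.0, 329, 482 and 133. The ratio of group means was 60.2 for knockout over control, and no library of these groups overlapped. The log2 fold changes were 5.89 ± 0.47 over control (adjusted p = 8.78e-06) and -3.96 ± 0.42 after transfer (adjusted p = 0.000142). Among all 16781 genes Iigp1 stood at place 33 by increase over control and at place 34 by decrease after transfer.

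The other effector, Ifi47 or Irgd (chr11:48967412-48987813, plus strand), stood at the opposite end. Its normalised counts were 492, 738 and 515 in control, 2377, 3118 and 3691 in knockout and 844, 629.8, 865, 1181 and 815 in transferred colons. Ifi47 had the highest level per kilobase of the members in controls and the smallest increase. It rose by 2.40 ± 0.23 on the log2 scale (adjusted p = 2.50e-05) and fell by 1.83 ± 0.20 after transfer (adjusted p = 0.000194). Control 2 overlapped the transferred range for this gene. In the annotation, 3.90% of its exonic bases are shared with the olfactory receptor gene Or2v1 on the same strand.

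The 3 regulators were also higher in knockout colons than in control and transferred colons. Igtp (chr11:58089840-58098417, plus strand) measured 236, 227 and 290.0 normalised counts in control, 3729, 6053 and 6933 in knockout and 711, 449.7, 762, 951 and 505 in transferred libraries. Every knockout library was far above the highest of the others, 951. With a log2 fold change of 4.43 ± 0.28 over control, Igtp had the smallest adjusted p of the members (adjusted p = 4.29e-06), and it fell by 3.05 ± 0.25 after transfer (adjusted p = 7.67e-05). Irgm1, whose loss in mice is known to cause interferon-driven disease (chr11:48752795-48763164, minus strand), measured 548, 549.7 and 696 in control, 3229, 4839 and 5645 in knockout and 985, 738, 1055, 1294 and 853 in transferred libraries. Irgm2, a known brake on caspase-11 responses (chr11:58090444-58113615, plus strand), measured 332, 420.5 and 443, 2643, 3425 and 4288 and 894, 663, 803, 1139.5 and 694 in the same order of groups. For both genes the 3 groups did not overlap. Their log2 fold changes over control were 2.90 ± 0.23 for Irgm1 and 3.10 ± 0.22 for Irgm2 (adjusted p = 8.37e-06 and 5.82e-06). Igtp and Irgm2 overlap on the same strand in the annotation, where they share 162 exonic bases, 3.55% of Igtp and 4.33% of Irgm2.

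**Figure D1:**
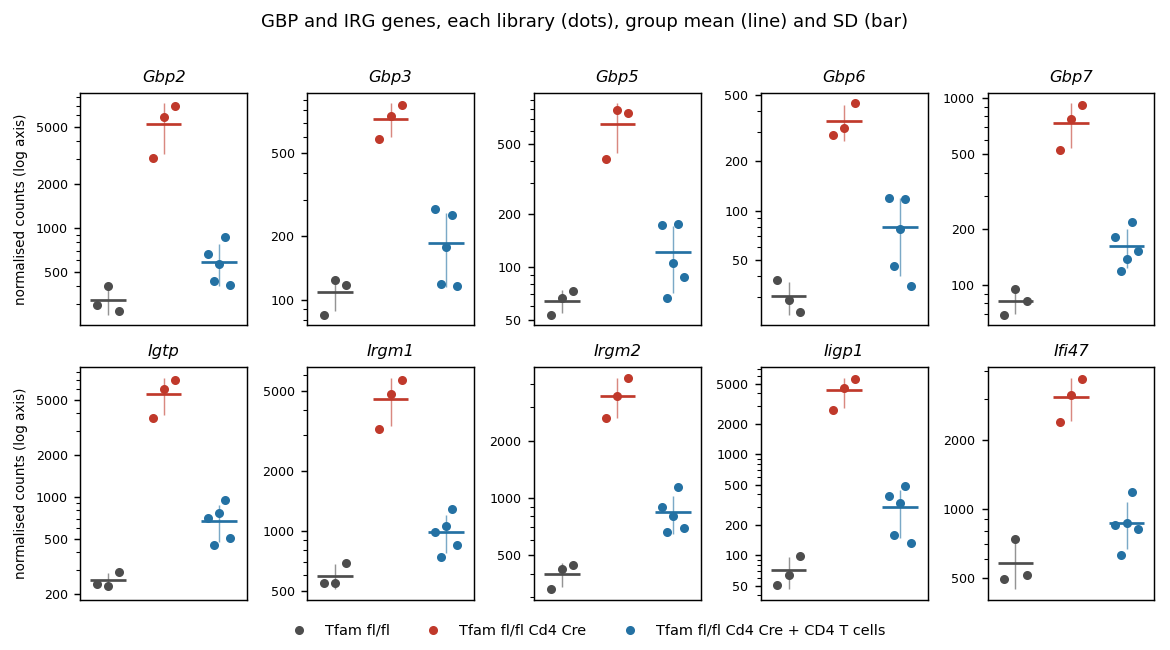
Normalised counts (log axis) of the 10 GBP and IRG genes in each library, with dots for libraries, lines for group means and bars for the SD, for Tfam fl/fl (n = 3), knockout (n = 3) and transferred mice (n = 5). In every panel the 3 knockout libraries lie above all others, and Iigp1 spans the widest range, from 50.9 to 5564.

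Counted together, 10 of 10 members were called higher in knockout than in control colons, against 22.7% of all genes tested. The libraries did not overlap for 10 of 10, against 29.0% of all genes with every knockout library above every control. The median log2 fold change of the members was 3.20 (range 2.40 to 5.89), beside 0.02 over all genes, with a median of 3.27 for the 5 GBPs and 3.10 for the 5 IRGs. Reads of the 10 genes made up 132 ± 10.3 CPM (the reads of a library scaled to a fixed total; SD, n = 3) in control and 1493 ± 384 CPM (SD, n = 3) in knockout colons. In whole tissue, fewer cells of a type and less RNA per cell cannot be told apart, which holds for every value here.

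After CD4 T cell transfer 10 of 10 members were called lower than in knockout colons, against 14.2% of all genes, and 10 of 10 did not overlap, against 16.6%. The median log2 fold change was -2.23 (range -3.96 to -1.83), beside -0.02 over all genes. Adjusted p-values ran from 7.67e-05 (Igtp) to 0.00157 (Gbp6). Ratios of group means, transferred over knockout, ran from 0.0694 for Iigp1 and 0.111 for Gbp2 to 0.256 for Gbp3 and 0.283 for Ifi47. This comparison uses the same knockout libraries as the one above.

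Transferred and control colons were closer. Of the members, 3 of 10 passed the test, all of them IRG genes, against 1.14% of all genes called higher. These were Igtp (1.38 ± 0.25 on the log2 scale, adjusted p = 0.0296), Irgm2 (1.06 ± 0.19, adjusted p = 0.0296) and Iigp1 (1.93 ± 0.42, adjusted p = 0.0469). Of the 5 GBPs 0 passed in limma or edgeR, although 5 had an unadjusted p under 0.05 and DESeq2 called 3 (Gbp2, Gbp6 and Gbp7). The other 7 log2 fold changes were all above 0, from 0.57 for Ifi47 (adjusted p = 0.168) to 1.22 for Gbp6 (adjusted p = 0.120), and Gbp7 was nearest to the threshold (0.94 ± 0.22, adjusted p = 0.0601). An unadjusted p under 0.05 was reached by 10 of 10, against 10.3% of genes in that direction, and the rule of the study (unadjusted p under 0.05 and log2 fold change over 0.6) by 9 of 10, against 5.66%. Every transferred library was above every control library for 6 members (Gbp2, Gbp7, Igtp, Irgm1, Irgm2 and Iigp1), against 6.09% of genes. This count of calls was not stable. It was 0 in the fit of these groups alone, 0 to 5 when single libraries were left out, and 7 with DESeq2. The fits without control 1, 2 or 3, or without transferred 1 or 3, called 0 members, those without transferred 2 or 5 called 5, and that without transferred 4 called 1. The numbers given below for other gene lists in this comparison moved in the same way, from 32 genes of all lists to between 5 and 64 without a single library.

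**Figure D2:**
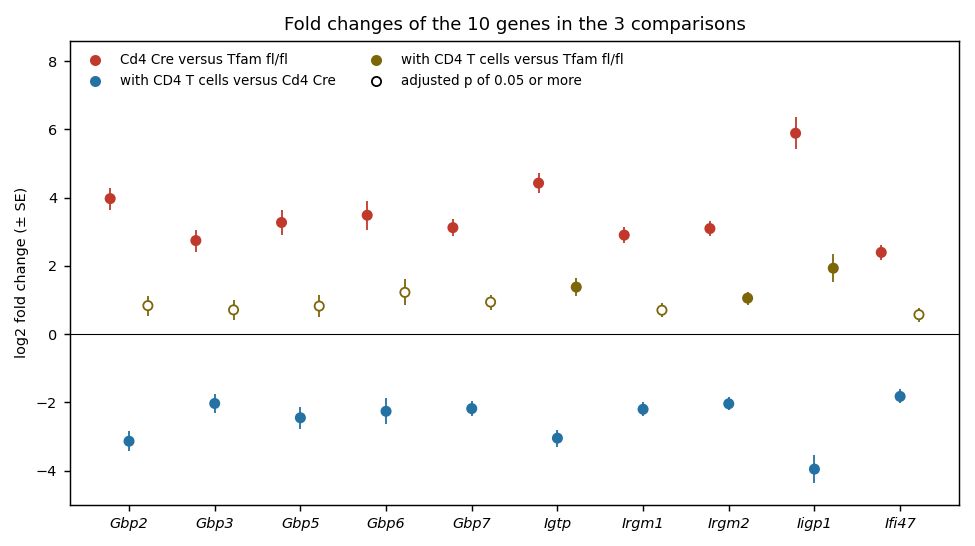
Log2 fold changes of the 10 genes (limma, log2(normalised counts + 1), bars ± SE) in the 3 comparisons, with filled dots for an adjusted p under 0.05. Knockout over control lies between 2.40 and 5.89, transferred over knockout between -3.96 and -1.83, and transferred over control between 0.57 and 1.93 with 3 filled dots.

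The order of the members changed between groups. Per kilobase of annotated exon, control colons had Ifi47 at 204 ± 47.7 normalised counts, Gbp2 at 125 ± 26.1, Irgm2 at 106 ± 15.8, Irgm1 at 94.1 ± 13.3, Igtp at 55.1 ± 7.48, Gbp3 at 25.5 ± 4.86, Gbp7 at 13.8 ± 2.15, Iigp1 at 11.2 ± 3.94, Gbp5 at 8.83 ± 1.34 and Gbp6 at 4.45 ± 1.00 (mean ± SD, n = 3). Neighbours in this order whose libraries overlapped were Gbp2 and Irgm2, Irgm2 and Irgm1, Gbp7 and Iigp1, and Iigp1 and Gbp5. In knockout colons Gbp2 was first at 2056 ± 779.9, followed by Igtp at 1223 ± 363, Ifi47 at 1076 ± 232, Irgm2 at 922 ± 219.9, Irgm1 at 719 ± 194 and Iigp1 at 674 ± 224. The remaining 4 followed well below, from Gbp3 at 172 ± 31.9 through Gbp7 at 124 ± 33.1 and Gbp5 at 89.4 ± 28.4 to Gbp6 at 51.6 ± 12.5. Only the step from Iigp1 to Gbp3 separated neighbours without overlap in that group. Iigp1 thus moved from place 8 to place 6 and Igtp from place 5 to place 2. In transferred colons Ifi47 was again first (305 ± 69.9) and Gbp2 next to it (229 ± 73.0, mean ± SD, n = 5), Iigp1 kept place 6 at 46.8 ± 23.4, and the step from Igtp (148 ± 44.5) to Iigp1 was the only one without overlap.

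Ratios within a library show this shift free of the size factor, for 4 pairs chosen after their values were seen. Iigp1 over Ifi47, both effectors, was 0.127 ± 0.0572 in control (SD, n = 3), 1.38 ± 0.189 in knockout (SD, n = 3) and 0.332 ± 0.121 in transferred colons (SD, n = 5). Igtp over Irgm1, both regulators, was 0.420 ± 0.00991, 1.21 ± 0.0501 and 0.676 ± 0.0694 in the same order. For Igtp over Irgm1 the 3 groups did not overlap, and the ratio lay between 0.592 and 0.735 in the transferred libraries. Gbp2 over Gbp3 was 3.00 ± 0.621, 7.02 ± 1.58 and 3.25 ± 0.484, with transferred libraries inside or next to the control range. The summed counts of the 5 IRGs over the 5 GBPs were 3.16 ± 0.408, 2.76 ± 0.235 and 3.30 ± 0.409, and here the groups overlapped.

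**Figure D3:**
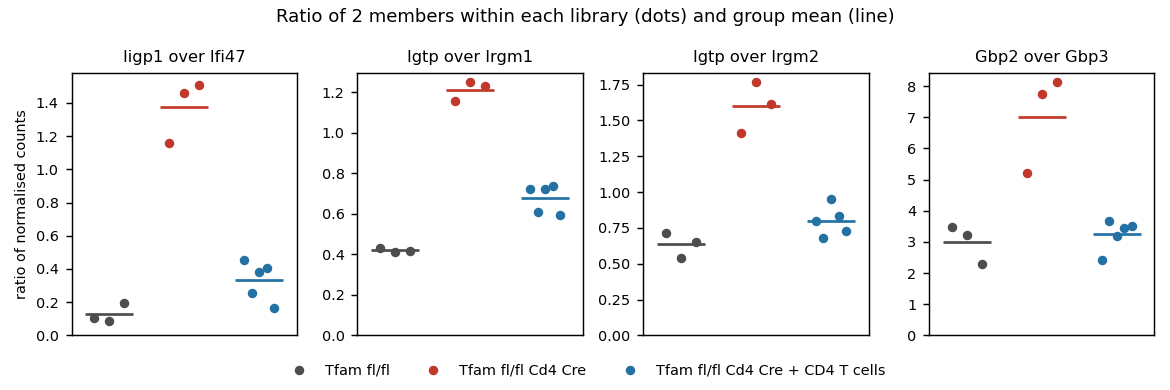
Ratio of normalised counts of 2 members within each library (dots) with the group mean (line), for Iigp1 over Ifi47, Igtp over Irgm1, Igtp over Irgm2 and Gbp2 over Gbp3. The knockout libraries lie highest in each panel, from 1.16 to 1.51 for Iigp1 over Ifi47, and Igtp over Irgm1 keeps the transferred libraries (0.592 to 0.735) apart from the controls (0.412 to 0.431).

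Members also varied together between the libraries of a group. Among the knockout libraries, library 1 was lowest for 10 of 10 members and library 4 highest for 9. Among the transferred libraries, library 4 was highest for 8 members and library 1 for the other 2, while library 2 was lowest for 6 and library 5 for 4. The summed counts of the 10 genes were 5223, 3426, 4879, 6679.9 and 3798 in transferred libraries 1 to 5, against 2200.4, 2708 and 2609 in controls 1 to 3 and 19599, 30422 and 36036 in knockout libraries 1, 3 and 4. Pairwise Pearson correlations of the 45 pairs of members, taken on deviations from group means, had a median of 0.82 (range 0.53 to 0.98, 11 libraries that share size factors).

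Further GTPases of these families were also higher in knockout colons. Of 16 other listed GTPases that could be tested, 14 were higher than in control, with a median log2 fold change of 3.25. Tgtp1 and Tgtp2 are near-identical GTPases of the IRG family, and their reads may be split between them. Their log2 fold changes were 5.97 ± 0.62 and 4.67 ± 0.39 (adjusted p = 3.82e-05 and 1.13e-05). Gm12250, also called Irgb10, measured 25.4, 19.9 and 20.9 normalised counts in control, 587, 813 and 1143 in knockout and 119, 50.3, 73.7, 174 and 101 in transferred colons. The 3 groups did not overlap for Gm12250, which rose by 5.15 ± 0.39 over control (adjusted p = 7.82e-06). Of the remaining GBPs, Gbp4 rose by 4.18 ± 0.37, Gbp8 by 4.07 ± 0.46, Gbp9 by 2.58 ± 0.33 and Gbp2b (also called Gbp1) by 2.85 ± 0.76 (largest adjusted p = 0.00968). Gbp10 and Gbp11 also rose, by 3.30 and 2.74, from 7 and 9 reads in the whole control group. The very large GTPases Gvin1, Gvin2 and Gvin3 and the IRG gene 9930111J21Rik2 rose by 2.93, 4.30, 3.30 and 3.20.

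The 2 of the 16 that did not pass were Irgq and Mx2. Irgq, an IRG-like gene that interferon is not known to induce, measured 633 ± 115 (SD, n = 3) in control and 734 ± 48.2 (SD, n = 3) in knockout colons (log2 fold change 0.23 ± 0.14, adjusted p = 0.206). The dynamin-like Mx1, a classical target of type I interferon, rose by 0.87 ± 0.28 (adjusted p = 0.0250), and Mx2 differed by 1.20 ± 0.49 (adjusted p = 0.0659). Irgc, an IRG of the testis, had at most 3.93 normalised counts in any library. F830016B08Rik and 9930111J21Rik1 were below the filter and had 0 reads in controls; with 3 reads in the control group taken as a floor they were at least 20.1-fold and 3.97-fold higher in knockout colons. After transfer 10 of the 16 fell, against 14.2% of all genes, with a median of -1.69. Against control, 3 of 16 were higher in transferred colons, beside 1.14% of all genes. These were Gm12250 (2.06, adjusted p = 0.0269), Gbp8 (1.92, adjusted p = 0.0469) and Tgtp2 (1.87, adjusted p = 0.0296).

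Interferon-gamma itself was found in the colons where the GTPases were high. Ifng had 0 reads in the 3 control libraries, 30.3, 88.2 and 66.8 normalised counts in the knockout libraries and 8.21, 2.01, 2.95, 7.62 and 2.19 in the transferred libraries. Transferred libraries 1 and 4, which had the most Ifng of their group, also had the most of the 10 GTPases, at counts of a few reads for Ifng. Among the knockout libraries the order differed. Library 3 had the most Ifng (88.2 against 66.8 in library 4), and library 4 the most of the 10 GTPases (36036 against 30422 in library 3, summed). Library 1 was lowest in both. A link between Ifng and the GTPases was not tested. Set against 3 reads in the control group as a floor, Ifng was at least 61.0-fold higher in knockout and at least 4.54-fold higher in transferred colons, and it fell by 3.53 ± 0.50 on the log2 scale after transfer (adjusted p = 0.000619). The receptor chains, named after their values were seen, differed less, with Ifngr1 at 0.52 ± 0.16 over control (adjusted p = 0.0218) and Ifngr2 at -0.22 ± 0.17 (adjusted p = 0.326). The listed type I and type III interferon genes (Ifnb1, Ifna4, Ifnl2 and Ifnl3) were not matched by symbol, so their levels are not known here. Of 15 ligand, receptor and kinase genes tested, 10 rose in knockout colons (median 0.52). Besides Ifng these included Il18rap (2.77 ± 0.41, adjusted p = 0.000335), Il12rb1 (2.48 ± 0.45, adjusted p = 0.00111) and Il12rb2 (3.48 ± 0.65, adjusted p = 0.00132), receptor chains through which interleukin-18 and interleukin-12 drive interferon-gamma production.

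Most but not all transcription factors and brakes of the pathway rose. Of 18 regulators, 13 rose and 2 (Irf7 and, named after its value was seen, Irf2) fell in knockout colons (median 1.45), beside 22.9% of all genes called lower. Ptpn2, Pias1 and Trim24, named after their values were seen, were not called (0.22, -0.04 and 0.24, smallest adjusted p = 0.220). Irf1 and Irf8, transcription factors that interferon-gamma induces, rose by 1.40 ± 0.18 and 1.60 ± 0.21 (adjusted p = 0.000129 and 0.000142). Socs1, the feedback inhibitor of the Janus kinases, measured 55.6, 35.8 and 63.9 in control, 379.8, 1069.5 and 1673 in knockout and 109.5, 58.3, 145, 123 and 69.0 in transferred colons. The transferred libraries of Socs1 overlapped the controls and lay below the knockout libraries. Socs1 rose by 4.10 ± 0.49 (adjusted p = 9.22e-05). The largest increases of the list were in Ciita and Nlrc5, the master regulators of MHC class II and class I genes, with 4.98 ± 0.41 and 4.51 ± 0.40 (adjusted p = 1.13e-05 and 1.76e-05). Irf7, the main amplifier of type I interferon, went the other way. It measured 5822, 8261 and 15796 in control, 1927, 2264 and 2727 in knockout and 3395, 5661, 4716, 2877 and 8364 in transferred colons. Irf7 fell by 2.00 ± 0.40 (adjusted p = 0.00192) and was higher by 1.03 ± 0.36 after transfer (adjusted p = 0.0470). The latter call was lost in 7 of 11 fits that left out a library (control 2, knockout 1, 3 or 4, and transferred 2, 3 or 5). After transfer 12 of the 18 regulators fell and 2 were called higher (Irf2 and, with the limit just given, Irf7), beside 17.0% of all genes called higher, and 3 remained above control, namely Ciita (2.79, adjusted p = 0.0101), Nlrc5 (2.20, adjusted p = 0.0254) and, named after its value was seen, Irf9 (0.53, adjusted p = 0.0484).

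**Figure D4:**
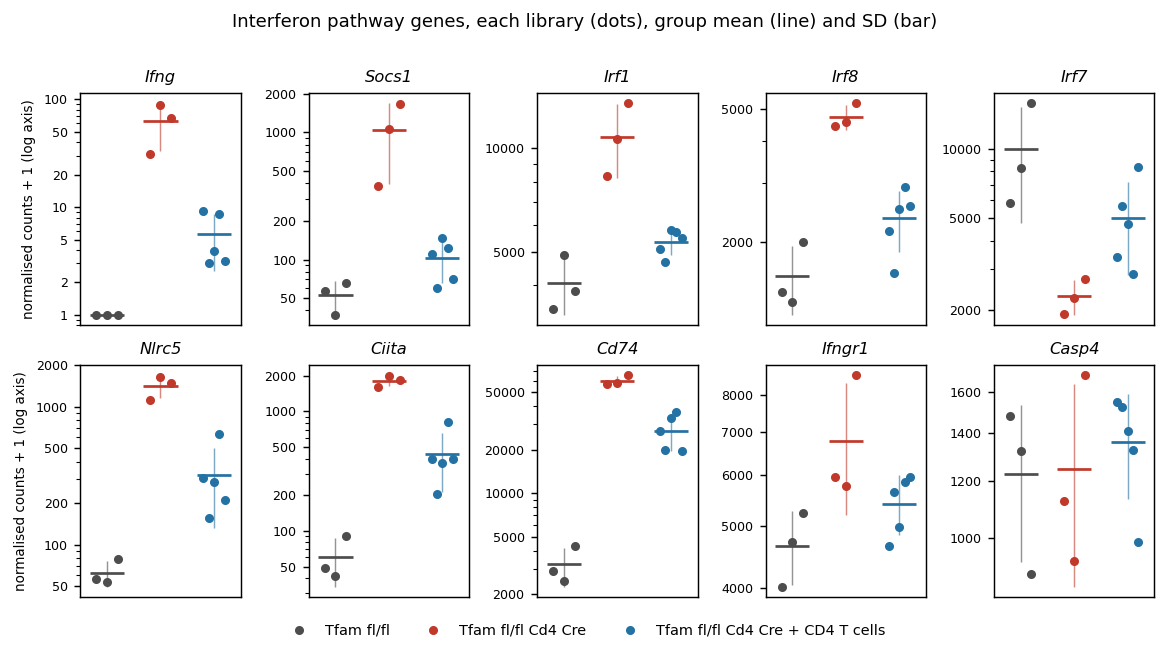
Normalised counts + 1 (log axis) of 10 interferon pathway genes in each library, with dots for libraries, lines for group means and bars for the SD. Ifng sits at 0 normalised counts in the 3 controls, Irf7 is lowest in the knockout libraries (1927 to 2727), Cd74 stays high in the transferred libraries (19439 to 36519.8), and Casp4 overlaps across the groups.

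Other targets of interferon-gamma rose with the GTPases, and those of type I interferon did so less evenly. Of 25 other interferon-gamma targets (chemokines, antigen presentation and immunoproteasome genes), 24 rose in knockout colons (median 3.09), 24 fell after transfer (median -1.27), and 9 remained above control after transfer (median 1.31). The 4 with the smallest adjusted p were MHC class II genes and their invariant chain. Cd74, the invariant chain, measured 2872, 2454 and 4303 in control, 56665, 57556 and 65391 in knockout and 26833, 19754, 33005, 36519.8 and 19439 in transferred libraries. Every transferred library of Cd74 was above 4 times the highest control. H2-Ab1, H2-Aa and H2-Eb1 rose by 3.77, 3.85 and 3.46 over control and were still 2.60, 2.72 and 2.20 above control after transfer (adjusted p = 0.000141, 0.000141 and 0.000676). Of 20 targets typical of type I interferon, 13 rose in knockout colons with a median of 0.94, and 11 fell after transfer, or 7 without knockout 4. In transferred colons 0 of the 20 passed against control in limma and edgeR and 2 in DESeq2, with 4 at an unadjusted p under 0.05 (median 0.24). The 4 with the smallest adjusted p over control were Ifit2, which also had the largest increase of the 20 (4.58 ± 0.24, adjusted p = 2.95e-06), Oasl2 (2.16 ± 0.30), Bst2 (1.67 ± 0.22) and Eif2ak2 (1.15 ± 0.16).

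Partners that load the GTPases onto membranes were called at about the rate of all genes. Of 15 genes of the ubiquitin-like conjugation and ubiquitin ligase machinery that helps GBPs and IRGs find vacuoles, 3 rose and 4 fell in knockout colons (median -0.26), that is shares close to the 22.7% higher and 22.9% lower among all genes. The number that fell was 2 without control 2 or knockout 3, 6 without control 1 or transferred 1, 7 with DESeq2 and 8 after quantile normalization. Traf6 and Trim21, ubiquitin ligases, rose by 1.18 ± 0.14 and 1.27 ± 0.17 (adjusted p = 8.21e-05 and 0.000207). Among the autophagy genes, Atg16l1 rose by 0.42 ± 0.10 (adjusted p = 0.00416), while Map1lc3a fell by 1.15 ± 0.14 and Gabarapl1 by 1.26 ± 0.18 (adjusted p = 8.35e-05 and 0.000231). Gabarapl2 and the cargo receptor Sqstm1 also fell, by 0.40 and 0.64; Gabarapl2, Sqstm1 and Atg16l1 were named after their values were seen. After transfer Traf6, Trim21 and Atg16l1 fell by 0.99, 0.89 and 0.28, and Map1lc3a, Gabarapl1 and Sqstm1 rose by 0.72, 0.79 and 0.55 (largest adjusted p = 0.0290).

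Genes of the inflammasome list, some of which act downstream of the GTPases, were split. Of 12 tested, 5 rose and 1 fell in knockout colons, beside 22.7% higher and 22.9% lower among all genes. Casp1 and Casp4, the caspases that GBPs help to engage (Casp4 is mouse caspase-11), were at 0.20 ± 0.10 and 0.01 ± 0.24 (adjusted p = 0.109 and 0.984). Gsdmd, the pore-forming gasdermin, rose by 1.01 ± 0.14 (adjusted p = 0.000217), the sensor Nlrc4 by 0.80 ± 0.14 (adjusted p = 0.000870), and the cytokines Il1b and Il1a by 4.87 ± 0.49 and 5.78 ± 0.57 (adjusted p = 3.18e-05 and 2.79e-05). The sensor Nlrp3 rose by 3.79 and the gasdermin gene Gsdmc2 fell by 2.44, both named after their values were seen (adjusted p = 0.000877 and 0.00964). After transfer the same 5 that had risen fell, from -0.52 for Nlrc4 to -4.20 for Il1a, beside 14.2% of all genes called lower. Transferred colons held 0 of 12 above or below control in limma and edgeR and 1 in DESeq2, with 4 at an unadjusted p under 0.05.

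Most immune cell markers were higher in knockout than in control colons. How many were called lower after transfer differed between cell types, beside 14.2% of all genes. T cell markers summed to between 371 and 447 normalised counts in control, 1899 and 1985 in knockout and 712 and 2129 in transferred colons, and 11 of 11 tested were higher in knockout than in control. Of these 11, 2 were called lower after transfer (Cd3g and, named after its value was seen, Cd3d). That number depended on single libraries, with 8 without transferred 4, 1 without knockout 1 or transferred 2 or 3, and 0 without knockout 3. Against control, 5 of 11 were higher in transferred colons, among them Cd3g, Cd6, Cd8a and, named after its value was seen, Cd3e. Transferred library 4 reached the T cell level of knockout colons, and its summed GTPases were 6679.9 against at least 19599 in those colons. These values rest on 1 library, and the part of T cells in the GTPase level was not tested. Without transferred library 4, 10 of 10 members were still called lower after transfer. Cytotoxic and NK cell markers summed to 169 to 198, 1073 to 1455 and 449 to 1594, with 7 of 8 tested higher over control and 1 of 8, Klrk1, lower after transfer (-1.07, adjusted p = 0.0282). Here too 6 of 8 were called lower without transferred 4, and 0 without knockout 3 or 4 or transferred 1, 2 or 3. Gzmb, the cytotoxic protease granzyme B, was at 3.57 over control and -0.73 after transfer (adjusted p = 4.90e-05 and 0.125). Macrophage markers summed to 4762 to 7199, 16777 to 21501 and 7019 to 14551, with 8 of 11 higher over control. After transfer 6 of 11 were lower, or 1 without knockout 3 and 3 without knockout 4. Another 1 of 11 was called higher after transfer, and this number was 0 or 1 when single libraries were left out. Mertk, named after its value was seen, was called lower over control, but not without control 3 or knockout 4. Of the genes in this list, Cd14 and Lyz2 rose by 2.07 ± 0.19 and 2.61 ± 0.38 over control (adjusted p = 2.14e-05 and 0.000291). Defining genes of neutrophils were near absent from control colons, where Cxcr2 had 0 reads and Ly6g 1 read in all 3 libraries together. Ly6g reached 656, 1658 and 889 normalised counts in knockout libraries and 8.21, 3.02, 12.8, 38.1 and 8.76 in transferred libraries; 9 of 9 neutrophil markers tested rose over control and 8 of 9 fell after transfer. Their sum (1755 to 4092, 8689 to 19061 and 2320 to 9693) was mostly Cd177, named after its values were seen, which had 1681 to 4024 of these counts in control colons. B cell markers summed to 125 to 449, 1089 to 1365 and 178 to 905, with 7 of 8 higher over control, or 4 without control 2. Blk was called lower after transfer, but not without knockout 1 or 3.

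Smooth muscle, nerve and fat cell markers were lower in knockout colons. Epithelial markers were called higher at about the rate of all genes. In the endothelial and fibroblast lists 3 genes each were called lower, and every knockout sum lay below every control sum. Epithelial markers summed to 332361 to 408880 in control, 388854 to 501286 in knockout and 341438 to 475856 in transferred colons, ranges that overlap, with 3 of 12 higher over control (Cdh1 0.76, Elf3 0.74 and Krt18 0.61, largest adjusted p = 0.00582), beside 22.7% of all genes. Smooth muscle markers summed to 230534 to 289543, 33378 to 48722 and 100275 to 162112, and 10 of 10 were lower over control, 10 of 10 higher after transfer, and 6 of 10 still lower than control after transfer, against 0.453% of all genes. Enteric nerve markers summed to 1343 to 2363, 335 to 656 and 837 to 1529, with 7 of 8 lower over control, and fat cell markers to 5971 to 12081, 2786 to 3734 and 5832 to 9012, with 8 of 8 lower. Endothelial markers summed to 3505 to 4179, 2654 to 3191 and 2858 to 3958, with 3 of 9 lower (Emcn, Tek and Kdr), and fibroblast markers to 17422 to 23002, 13303 to 15905 and 15189 to 23965, with 3 of 8 lower (Dpt, Col14a1 and Lum), beside 22.9% of all genes. The mean muscle sum of knockout colons was 39263 against 253491 in control. For each of the immune and structural lists above, its part in the difference of the GTPases was not tested.

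**Figure D5:**
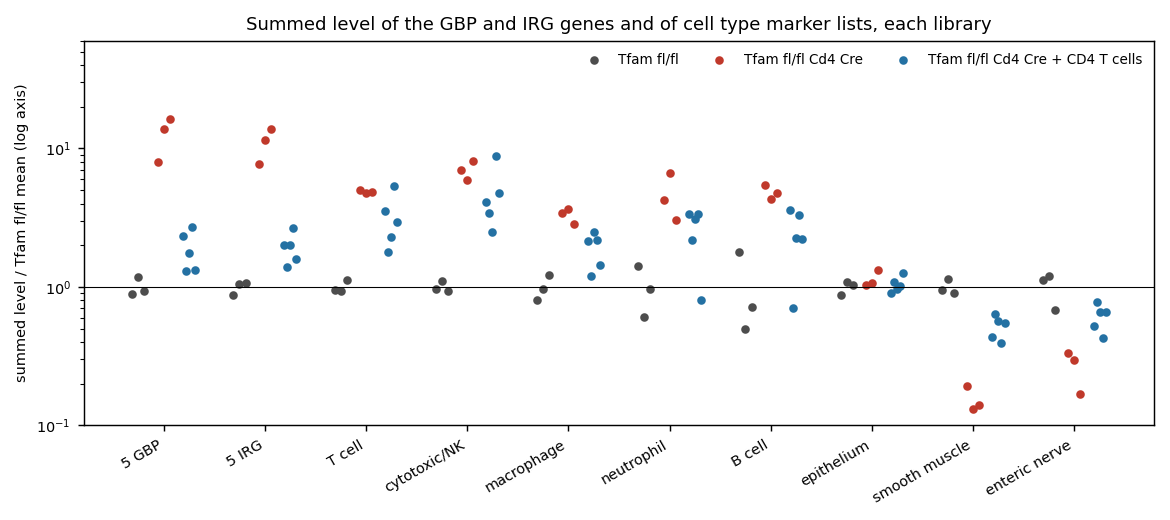
Summed normalised counts of the 5 GBPs, the 5 IRGs and 8 cell type marker lists in each library, divided by the control mean (log axis, dots are libraries, the line at 1 is the control mean). The GTPases of the knockout libraries lie from 7.75 to 16.4, the T cell and cytotoxic markers of transferred library 4 reach those of the knockout libraries, and smooth muscle and nerve markers of the knockout and transferred libraries lie below 1.

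Genes outside the 10 whose profile followed them most closely were sought by the Pearson correlation with the mean standardized log2 profile of the members over 11 libraries, among 13375 genes with a mean of at least 50. Among the 5 nearest were Gbp4 (r = 0.993), Slfn2 (0.992), Smim31 (0.991) and Tgtp1 (0.990). The members themselves ranged from 0.972 (Gbp6) to 0.995 (Igtp). These values describe likeness over 3 groups that stand apart and carry no p. Smim31, a small membrane protein, rose less steeply, by 2.03 over control (adjusted p = 2.43e-05), and measured 322, 321 and 378 in control, 1116, 1403 and 1720.3 in knockout and 612, 443, 603, 715 and 477 in transferred libraries.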

How the data were processed

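Whole colon RNA of 11 samples was sequenced as polyA-selected, stranded mRNA libraries. The submitters' processing notes name HISAT2 2.2.1, SAMtools 1.13, HTSeq 1.99.2, DESeq2 1.40.2 and the GRCm39 build, while the methods of the study name either HISAT2 or STAR as aligner. The strand setting of the read counting is not given in the sources used here. The deposited table holds size-factor normalised signal, that is read counts of each gene divided by 1 factor per library by the authors; 100% of values were whole multiples of 1 step per library (tolerance 0.05 reads), so whole reads were recovered, 18214741 to 19178986 per library, and edgeR on these reads called 3770 genes higher and 3859 lower in knockout than in control colons. Fold changes of low genes are understated on the log2(value + 1) scale, and reads shared by overlapping genes or near-identical copies cannot be assigned with certainty.

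Groups were taken from the sample labels. Genes with a mean of at least 10 normalised counts (16781 of 22836) were tested with limma 3.58.1 (R 4.3.3, mean-variance trend) on log2(normalised count + 1), with all 11 libraries in 1 fit, no covariate and Benjamini-Hochberg adjustment over all genes tested (threshold 0.05). The procedure was tested on simulated data. Alternatives were count tests of the recovered reads (edgeR 4.0.16, DESeq2 1.42.0), other pseudocounts (0.5 and 10), filters (none, mean of at least 50), TMM and quantile scaling, a constant variance, a block for the replicate number, fits of single comparisons, the threshold of the study, and leaving out each library. No 2 libraries agreed within sampling noise, and no column of the table was left unused.

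The members and the gene lists (other GTPases, interferon ligands and receptors, regulators, interferon-gamma and type I interferon targets, loading partners, inflammasome genes and cell type markers) were chosen with earlier results of these data known. Besides the 10 members, Tfam and Cd4, up to 4 genes of a list with the smallest adjusted p in the first comparison were named, together with Ifng, Irf1, Irf7, Irf8, Nlrc5, Ciita, Casp1, Casp4, the other GBP and IRG genes and the genes most alike. Results for some genes that this rule covers are not reported here. Promoter windows came from RefSeq (GRCm38.p6) and were placed in GRCm39 by exact unique match.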

Additional observations from a re-analysis of the deposited data

Results flagged for a closer look

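Among 108 genes of the lists examined in the 5 transferred libraries, 8 had a library far from the other 4 by Dixon's criterion (gap over range above 0.71), which chance gives for about 1 gene in 20. None of these 8 was among the 10 GTPases. In transferred library 4 the highest normalised counts were those of Cd3g (274, others 96.6 to 136), Gzma (778, others 186 to 357), Nkg7 (151, others 45.3 to 74.5), Il12rb2 (25.7, others 4.56 to 6.57), Ly6g (38.1, others 3.02 to 12.8) and the IRG gene 9930111J21Rik2 (25.7, others 4.56 to 9.83). Gvin1 stood apart in transferred library 1 (231, others 15.1 to 55.0), above the knockout libraries, which had 109 to 126. Il1a stood apart in transferred library 5 (14.2, others 3.93 to 6.39).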

How the results depend on the processing

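All 10 members were called higher in knockout than in control and lower after transfer under each of the 12 other settings and each of the 11 omissions of a library, and no member reversed. Transferred against control depended on the processing. The 3 members called there became 0 with no variance trend, 0 in the fit of these groups alone, 5 with the replicate block, 7 with DESeq2 and 9 at the threshold of the study, and 0 to 5 without single libraries. Genes called higher in this comparison (192) became 107, 18, 617, 774 and 950 in the same order, 112 with edgeR, and 11 to 542 without single libraries. Genes called lower (76) became 38, 5, 313, 462 and 713, and 0 to 289. Genes of the lists called (32) became 10 in the fit of these groups alone, 50 with the replicate block, 73 with DESeq2 and 91 at the threshold of the study, and 5 to 64. For transferred against knockout, genes called lower (2380) became 1391 at the threshold of the study and 1211 to 2419 without single libraries, and genes called higher (2860) became 1867 to 2880. Beyond fewer samples in the omissions, the cause was not tested. Replicate numbers are shared between groups, but deviations of same-numbered libraries from their group means correlated between -0.10 and 0.39 over 8 pairs, so the numbers were not taken as a pairing, and the replicate block is given only here. Ifng, Gbp10 and Gbp11 rest on few reads, and smaller differences in them were not detectable at this depth.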

Other observations

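Within the interferon-gamma targets, the level in transferred colons as a share of the knockout level differed from gene to gene. The mean in transferred colons over the mean in knockout colons was 0.453 for Cd74, 0.468 for H2-Aa, 0.453 for H2-Ab1 and 0.429 for H2-Eb1. It was 0.0694 for Iigp1, 0.111 for Gbp2 and at most 0.283 among the 10 GTPases. Other listed targets lay on both sides, with Ido1 at 0.0387, Nos2 at 0.137 and Psme2 at 0.628. These genes were named after their values were seen. Other listed GTPases differed too, such as Tgtp1 at 0.0593 and Gbp2b at 0.425. Differences between these ratios were not tested, and all rest on the same libraries. The MHC class II genes were set beside the GTPases after their values were seen.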
